A study of Mus musculus with 24 samples.

Results

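Complement is a set of plasma proteins, made mostly by hepatocytes, that tag microbes and damaged cells and can puncture their membranes. The 9 genes described here are C3, Cfb, Cfi, C4b, Hc (the mouse gene for complement component C5), C9, C8a, C8b and C8g, which code for complement proteins that the liver secretes. They were chosen by gene symbol with their RPKM fold changes by dose in these same libraries known, out of 15582 genes that had a value in the table analysed. All 9 passed the filter on low values. Each lay lower in livers of mice given dichloroacetic acid (DCA) at 3.5 g/L than in control livers, and C9 lay furthest below, at 15.9% of the control mean.

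RNA was sequenced in 24 libraries from frozen liver of male B6C3F1 mice, an F1 hybrid strain, given as 4 weeks old in the labels. The groups were no DCA (control), 1 g/L, 2 g/L and 3.5 g/L DCA in the drinking water for 6 days, with 6 libraries per group and no other treatment named. Each library came from a piece of liver of mixed lobes, so all cell types of the liver contribute. Whether the 24 libraries stem from separate mice is not stated in the labels, and the p-values therefore cover only the spread among libraries, which may be technical in part.

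In the classical and lectin routes, bound antibody or sugar-binding proteins activate proteases that cut C4 and C2. In the alternative route, C3 that has been activated spontaneously or by another route binds factor B. All routes converge on enzymes that cleave C3 and then C5, after which C6, C7, C8 and C9 assemble into a pore called the membrane attack complex, while factor I cuts and inactivates the active forms of C3 and C4.

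The promoter sequences of 5 of the genes are shown because they hold the letters of motifs bound by liver transcription factors. The 250 bases before the start of each gene were taken from RefSeq (GRCm38.p6), which had an entry for C3, Hc, C9, C8a, C8b and C8g, and both strands were searched. Capitals mark the matches. The HNF1 core (GTTAAT, or ATTAAC on the other strand), named for a homeodomain factor of hepatocytes, was found in C8a, C8b and Hc, which is 3 of the 6 genes with a window. It was found in 6.47% of all 32536 windows of the same length.
C8a, chr4:104876399-104876648, - strand: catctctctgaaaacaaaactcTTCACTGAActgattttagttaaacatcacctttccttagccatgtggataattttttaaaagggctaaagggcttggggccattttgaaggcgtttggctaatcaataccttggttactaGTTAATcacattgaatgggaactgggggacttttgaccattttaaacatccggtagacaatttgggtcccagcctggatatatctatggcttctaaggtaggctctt
C8b, chr4:104766067-104766316, + strand: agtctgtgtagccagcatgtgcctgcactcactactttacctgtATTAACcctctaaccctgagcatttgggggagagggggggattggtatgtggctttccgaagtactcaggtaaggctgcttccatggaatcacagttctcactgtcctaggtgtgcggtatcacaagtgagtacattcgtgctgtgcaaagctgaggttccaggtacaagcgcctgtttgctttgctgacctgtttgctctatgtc
Hc, chr2:35061413-35061662, - strand: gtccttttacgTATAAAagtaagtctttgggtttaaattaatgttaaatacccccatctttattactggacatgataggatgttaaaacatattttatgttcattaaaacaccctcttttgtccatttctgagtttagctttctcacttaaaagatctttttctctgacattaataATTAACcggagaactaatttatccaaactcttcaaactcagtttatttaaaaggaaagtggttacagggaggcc
A pattern of C/EBP factors (TTGCNNAA), which act in hepatocyte differentiation and in the acute-phase response, was found in C9 and C3 and in 9.57% of all windows.
C9, chr15:6445096-6445345, + strand: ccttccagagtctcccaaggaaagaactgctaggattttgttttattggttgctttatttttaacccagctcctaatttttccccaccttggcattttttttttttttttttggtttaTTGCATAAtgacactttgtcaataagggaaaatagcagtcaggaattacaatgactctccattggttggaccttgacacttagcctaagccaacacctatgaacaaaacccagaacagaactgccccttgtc
C3, chr17:57228137-57228386, - strand: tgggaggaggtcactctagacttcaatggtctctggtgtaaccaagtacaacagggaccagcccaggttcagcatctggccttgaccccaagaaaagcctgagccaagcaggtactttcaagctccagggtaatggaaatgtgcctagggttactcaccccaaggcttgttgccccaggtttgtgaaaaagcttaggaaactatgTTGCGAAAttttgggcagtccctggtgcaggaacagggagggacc
C8a also held a STAT pattern (TTCNNNGAA, in 7.04% of windows). Hc held the letters of a TATA box (TATAAA, in 12.3%) at −239 to −234 from the start, near the far end of its window. The HNF4 pattern (CAAAGTCC) was in none of the windows of these genes and in 1.2% of all windows. C8g, for which RefSeq gave 2 start sites, had none of these motifs in either window. A match of letters says nothing of binding in these livers, which was not measured.

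The genes lie on 5 chromosomes (GRCm38). Cfb (chr17:34856374-34862518, minus strand) and C4b (chr17:34728380-34743882, minus strand) lie 112.5 kb apart, and C3 lies on the same chromosome (chr17:57203970-57228136, minus strand). C8b (chr4:104766317-104804548, plus strand) and C8a (chr4:104815679-104876398, minus strand) are 11.1 kb apart. C8g (chr2:25498651-25501719, minus strand) and Hc (chr2:34983331-35061438, minus strand) share chromosome 2, C9 lies at chr15:6445327-6498751 on the plus strand and Cfi at chr3:129835884-129875332 on the plus strand.

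Values are RPKM, which divides the reads of a gene by its length and by the total mapped in its library, so levels of different genes are set side by side per length. Fold changes are differences of log2(RPKM + 1) from a limma fit over all 24 libraries, and a gene is called where the adjusted p is below 0.05 over 6540 genes. Libraries held about 24400000 to 29000000 reads, estimated from the steps in the deposited values. The fewest reads behind any value of the 9 genes were about 1600, for C8g. Hepatocyte markers such as Alb summed to 16450 to 29350 RPKM, whereas lymphocyte markers summed to at most 6.29 RPKM and cholangiocyte markers to at most 3.29 RPKM. Control replicate 8 stood apart, with 153 RPKM of Lcn2, an acute-phase and neutrophil protein, against 2.89 to 4.68 RPKM in the other control libraries. At 2 g/L, replicates 74 and 75 had 98.5 and 125 RPKM of Lcn2. Each title also bears a label, L1, L2 or L3, of unstated meaning, called the tag here. All controls and 3 libraries at 1 g/L were L1, the other 3 at 1 g/L and all at 2 g/L were L2, and all at 3.5 g/L were L3, so at 3.5 g/L tag and dose cannot be told apart.

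C3 was the most abundant of the 9 transcripts at every dose. At 3.5 g/L its mean level was 663 RPKM, followed by Cfb (121 RPKM), Cfi (72.0 RPKM), Hc (70.2 RPKM), C8a (67.3 RPKM), C8g (54.5 RPKM), C9 (44.9 RPKM), C8b (42.3 RPKM) and C4b (37.9 RPKM). In that order C3 over Cfb and Cfb over Cfi separated all libraries at 3.5 g/L, and the neighbours below overlapped. In control livers C3 averaged 1272 ± 201 RPKM (SD, n = 6), followed by Cfb (307 RPKM), C9 (283 RPKM), C8a (188 RPKM), Cfi (172 RPKM), Hc (155 RPKM), C4b (153 RPKM), C8b (145 RPKM) and C8g (101 RPKM). There the first step, C3 over Cfb, and the last, C8b over C8g, separated all control libraries. The summed level of the 9 transcripts averaged 2775 ± 386 RPKM in control livers, 1873 ± 151 RPKM at 1 g/L, 1492 ± 223 RPKM at 2 g/L and 1173 ± 138 RPKM at 3.5 g/L (SD, n = 6 each).

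At 1 g/L 5 of the 9 genes (C3, C4b, C8a, Cfb and Cfi) were called lower than control and none higher. Of all genes tested, 3.03% were called lower and 8.35% higher at that dose. At 2 g/L and at 3.5 g/L all 9 were called lower, where the shares of all genes were 10.0% lower and 41.9% higher at 2 g/L, and 12.9% lower and 38.6% higher at 3.5 g/L. In terms of ranges, every DCA library lay below the lowest control library for 5, 7 and 9 genes at the 3 rising doses, against 1.61%, 3.1% and 5.86% of all genes. The genes were named with these same contrasts known, so nothing is read from their counts. With the title tag as a term, 3 genes (C3, C4b and Cfb) were called at 1 g/L and 8 at 2 g/L, all but C3 (log2 fold −0.51, SE 0.23), and within tag L1 1 gene, C4b, was called at 1 g/L. The folds at 1 g/L of the genes no longer called with the term were close to those without it, −0.29 (SE 0.11) for C8a and −0.37 (SE 0.10) for Cfi, against −0.30 (SE 0.09) and −0.38 (SE 0.08). Within tag L1 the folds of C3 and Cfb were −0.66 (SE 0.15) and −0.56 (SE 0.13), against −0.79 and −0.59 over all libraries. Scaling by median-ratio factors left the 5, 9 and 9 calls. Over all genes it gave 355 lower and 236 higher at 1 g/L and 1407 lower and 1363 higher at 2 g/L. At 3.5 g/L it gave 1569 lower and 1503 higher. Quantile scaling left 4, 9 and 9 calls of the 9 genes, with C8a not called at 1 g/L (log2 fold −0.29, SE 0.10). With no filter on low values 4 were called at 1 g/L. The median log2 fold of the 9 was −0.35, −0.91 and −1.33 at the 3 rising doses, while that of all tested genes was 0.05, 0.12 and 0.10. With 1 value per piece of liver, fewer hepatocytes and less RNA per hepatocyte cannot be told apart.

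**Figure D1:**
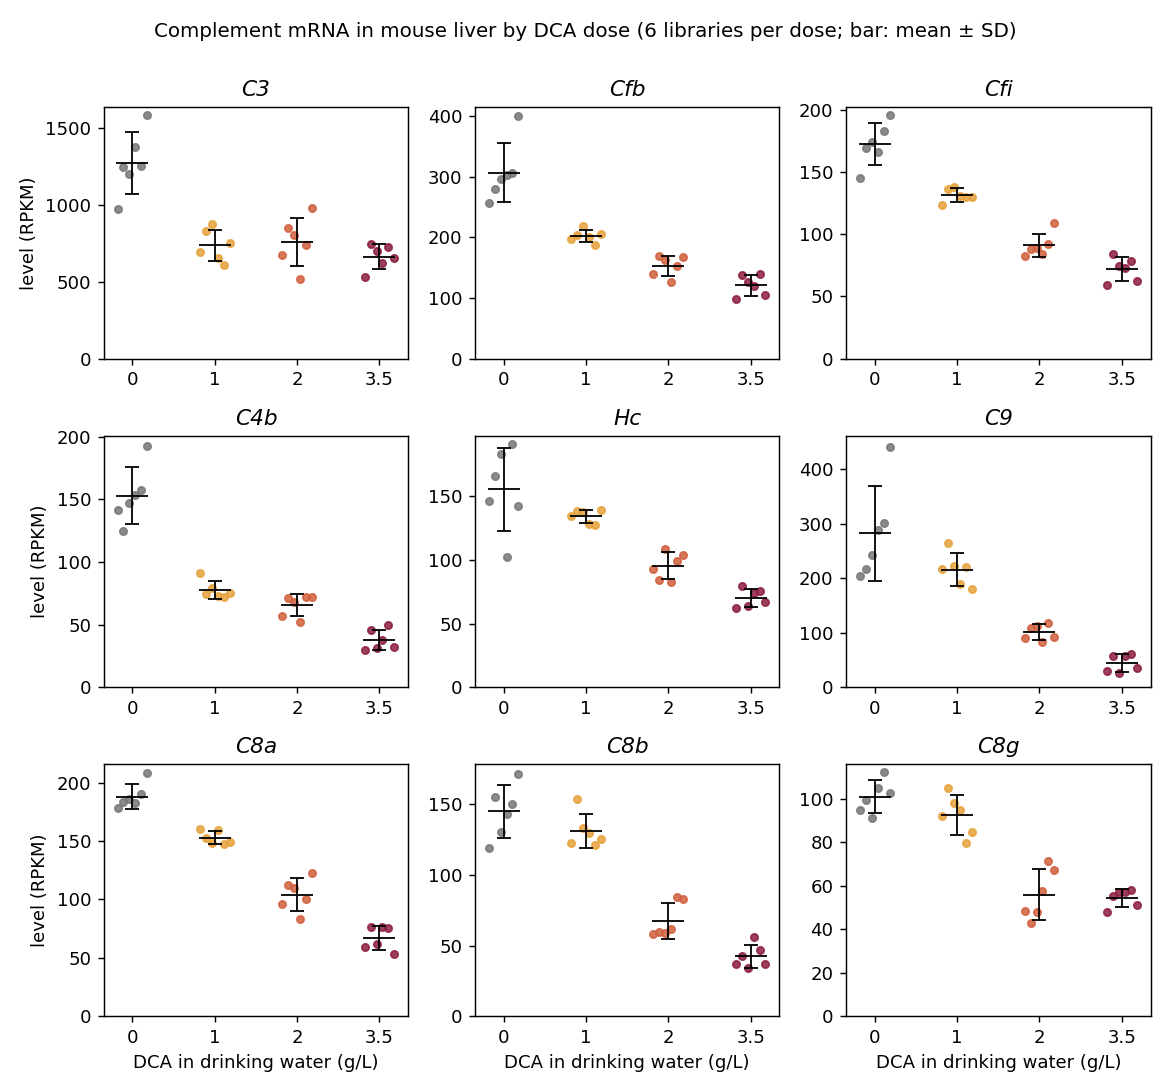
Level (RPKM, linear axis from 0) of the 9 complement transcripts in each of 24 libraries by DCA dose, drawn evenly spaced; points are libraries and bars the mean ± SD of 6. C3 was lower at 1 g/L and differed little between the 3 DCA doses, whereas C9 lay between 26.5 and 60.6 RPKM at 3.5 g/L against 204 to 441 RPKM in control livers.

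C3 is the protein on which all routes converge. Its level ran from 975 to 1582 RPKM in control livers (median 1249), from 609 to 875 RPKM at 1 g/L (median 721), from 516 to 975.5 RPKM at 2 g/L (median 769) and from 531 to 746 RPKM at 3.5 g/L (median 676). All libraries at 1 and 3.5 g/L lay below every control library, and at 2 g/L 5 of 6 did. The log2 fold over control was −0.79, −0.76 and −0.93 at the 3 rising doses (SE 0.13 each). C3 thus stood at 57.8%, 59.6% and 52.1% of the control mean, with overlapping ranges between neighbouring DCA doses.

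Factor B, coded by Cfb, is the protease subunit of the alternative route's convertases. Its level was 256 to 400 RPKM in control livers (median 299.5), 187 to 218 RPKM at 1 g/L (median 202.5), 127 to 169 RPKM at 2 g/L (median 158) and 98.9 to 140 RPKM at 3.5 g/L (median 123). No DCA library reached the control range, and the 1 and 2 g/L ranges did not overlap either. The log2 fold was −0.59, −0.99 and −1.33 at the 3 rising doses (SE 0.10 each). The highest control value, 400 RPKM, belonged to replicate 8, and the other 5 controls lay between 256 and 307 RPKM.

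Cfi codes for factor I, the protease that inactivates C3b and C4b. It was measured at 145 to 196 RPKM in control livers (median 172), 123 to 138 RPKM at 1 g/L (median 131), 82.7 to 109 RPKM at 2 g/L (median 88.8) and 59.5 to 83.8 RPKM at 3.5 g/L (median 73.8). Each DCA range lay below the control range, and only the 2 and 3.5 g/L ranges met, through 1 library at 3.5 g/L. Its log2 fold was −0.38, −0.91 and −1.25 (SE 0.08 each). This regulator of C3 was therefore at 41.8% of its control mean at 3.5 g/L, beside 52.1% for C3 itself.

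C4b codes for C4 of the classical and lectin routes. Its level was 124 to 193 RPKM in control livers (median 150), 71.9 to 91.2 RPKM at 1 g/L (median 75.0), 52.2 to 72.5 RPKM at 2 g/L (median 69.7) and 30.0 to 49.6 RPKM at 3.5 g/L (median 35.3). All DCA libraries lay below all controls, and those at 3.5 g/L below all at 2 g/L. The log2 fold was −0.96, −1.21 and −2.0 (SE 0.12 each), and its mean at 1 g/L, 50.8% of control, was the lowest share among the 9 at that dose. C4a, a near-identical copy, had 0.36 to 3.30 RPKM over all libraries, so reads that the counting could have placed on either gene leave both values uncertain. The 3 libraries at 1 g/L with the same tag as the controls had 74.4 to 91.2 RPKM of C4b, and within that tag its log2 fold was −0.89 (SE 0.13).

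Hc codes for C5, whose cleavage starts the terminal route. Its level was 102 to 191 RPKM in control livers (median 156), 127 to 138.5 RPKM at 1 g/L (median 136), 82.4 to 108.5 RPKM at 2 g/L (median 95.7) and 62.3 to 79.4 RPKM at 3.5 g/L (median 70.4). The 1 g/L libraries all lay within the control range, 4 of 6 at 2 g/L lay below it, and all 6 did at 3.5 g/L. The log2 fold was −0.18, −0.68 and −1.11 (SE 0.11 each).

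C9 polymerises to form the wall of the membrane attack pore. It had 204 to 441 RPKM in control livers (median 266), 180 to 266 RPKM at 1 g/L (median 219), 83.7 to 118 RPKM at 2 g/L (median 101) and 26.5 to 60.6 RPKM at 3.5 g/L (median 46.8). Control and 1 g/L libraries overlapped, with 2 of 6 at 1 g/L below the lowest control, and the 2 and 3.5 g/L libraries each formed a separate lower range. The log2 fold was −0.35, −1.43 and −2.65 (SE 0.19 each), which left C9 at 76.5%, 35.9% and 15.9% of its control mean. Its spread was wide in control livers (SD 86.8 RPKM) through replicate 8, and without that library the fold at 3.5 g/L was −2.52.

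C8 consists of 3 chains from 3 genes: C8a and C8b code for pore-forming chains of the same family as C9, and C8g for a small lipocalin bound to the alpha chain. C8a had 179 to 208 RPKM in control livers (median 184.5), 147 to 161 RPKM at 1 g/L (median 151), 83.0 to 123 RPKM at 2 g/L (median 105) and 53.6 to 76.6 RPKM at 3.5 g/L (median 69.0). These 4 ranges did not meet, and the log2 fold over control was −0.30, −0.86 and −1.48 (SE 0.09 each). C8b had 119 to 171.5 RPKM in control livers (median 147), 121.5 to 154 RPKM at 1 g/L (median 127), 58.0 to 84.6 RPKM at 2 g/L (median 60.6) and 34.2 to 56.2 RPKM at 3.5 g/L (median 39.8). Its 1 g/L libraries lay inside the control range, and its log2 fold was −0.14, −1.10 and −1.76 (SE 0.12 each). C8g had 91.1 to 112 RPKM in control livers (median 101), 79.4 to 105 RPKM at 1 g/L (median 93.4), 42.9 to 71.3 RPKM at 2 g/L (median 53.0) and 47.8 to 57.9 RPKM at 3.5 g/L (median 56.3). For C8g the libraries at 3.5 g/L lay inside the range at 2 g/L, and its log2 fold was −0.13, −0.86 and −0.88 (SE 0.10 each).

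**Figure D2:**
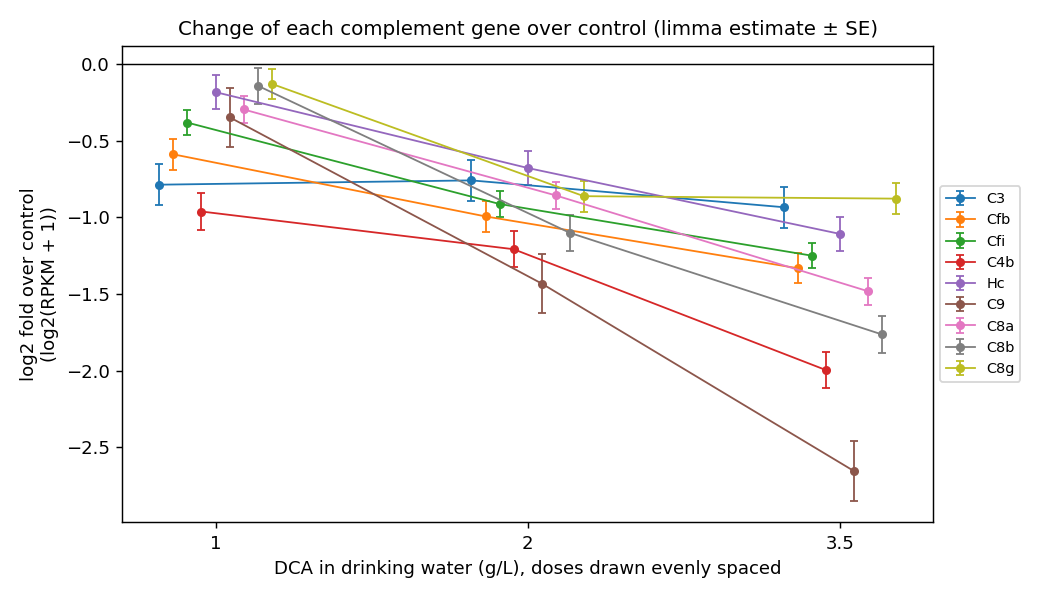
Log2 fold over control on the log2(RPKM + 1) scale for each of the 9 genes at 1, 2 and 3.5 g/L DCA, offset sideways for clarity; points are limma estimates and bars their SE. C9 and C4b ended lowest, at −2.65 and −2.0, while the C3 and C8g lines were nearly level between 2 and 3.5 g/L.

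The 9 genes parted in where along the dose series they were lower. From 1 to 2 g/L the log2 difference (2 minus 1 g/L) was 0.03 for C3 (SE 0.13) and −0.25 for C4b (SE 0.12), against −0.96 for C8b (SE 0.12) and −1.09 for C9 (SE 0.19). For 7 of the 9, all but C3 and C4b, every library at 2 g/L lay below every library at 1 g/L, a pattern seen in 2.11% of all genes. From 2 to 3.5 g/L the difference (3.5 minus 2 g/L) was −0.02 for C8g (SE 0.10) and −0.18 for C3 (SE 0.13), against −0.79 for C4b and −1.22 for C9. The 3.5 g/L libraries lay below all 2 g/L libraries for C4b, Hc, C8a, C8b and C9, a pattern seen in 2.02% of all genes. The step from 1 to 2 g/L can be taken within tag L2, 6 libraries at 2 g/L against 3 at 1 g/L. There the log2 difference was 0.15 for C3, −0.18 for C4b, −0.90 for C8b, −0.96 for C9 and −0.64 for C8g.

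Ratios between transcripts of the pathway differed accordingly between doses. Transcripts of C8b and C8g, 2 chains of 1 protein, stood at a ratio of 0.776 ± 0.126 at 3.5 g/L and 1.44 ± 0.15 in control livers (SD, n = 6 each), with ranges of 0.597 to 0.984 and 1.26 to 1.67. The ratio of C8a to C8g was 1.23 ± 0.14 at 3.5 g/L and 1.87 ± 0.14 in control livers, but at 2 g/L it spread from 1.41 to 2.62, across the control range. C8a over C8b was 1.61 ± 0.18 at 3.5 g/L and 1.31 ± 0.12 in control livers, with overlapping ranges. C9 over C8a was 0.654 ± 0.153 at 3.5 g/L and 1.49 ± 0.36 in control livers, and C4b over C3 was 0.0570 ± 0.0085 at 3.5 g/L and 0.121 ± 0.015 in control livers, both with ranges that did not meet. C3 made up 56.5% of the summed RPKM of the 9 at 3.5 g/L and 45.8% in control livers, while the share of Cfb was 10.3% at 3.5 g/L and 11.1% in control livers. Ratios within a library are free of the scaling between libraries.

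**Figure D3:**
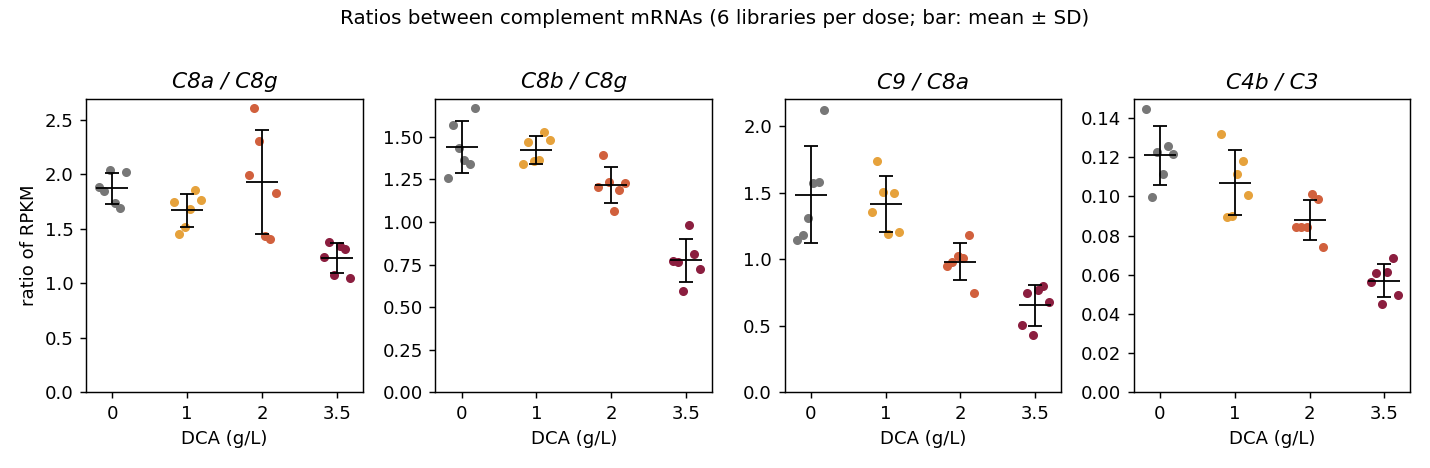
Ratio of RPKM between pairs of complement transcripts (linear axes from 0) in each library by DCA dose; points are libraries and bars the mean ± SD of 6. C8b over C8g lay at 0.597 to 0.984 at 3.5 g/L against 1.26 to 1.67 in control livers.

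The genes also varied together between libraries of 1 dose. After the mean of each dose was removed, Pearson r between the 36 pairs ran from 0.16 to 0.84 over 24 libraries (median 0.54), and Spearman rho from 0.17 to 0.86. The values describe these libraries, which share depth and scaling, and carry no p. The highest r joined C3 with Cfb (0.84), Cfb with Cfi (0.83) and C4b with Cfb (0.82), the early components and the regulator. Directly below came C4b with C9 (0.80) and C4b with C8a (0.79), which pair an early with a terminal component. By Spearman both of these (rho 0.80 each) stood above C4b with Cfb (0.78). Hc had the lowest values, 0.16 with C8g and 0.18 with C3. Within C8, C8b and C8g had r = 0.70, whereas C8a and C8g, whose protein chains are bound to each other, had r = 0.19. Control replicate 8 was the highest control for 7 of the 9 genes and replicate 3 the lowest for 6, and without replicate 8 the median r was 0.52 over 23 libraries.

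**Figure D4:**
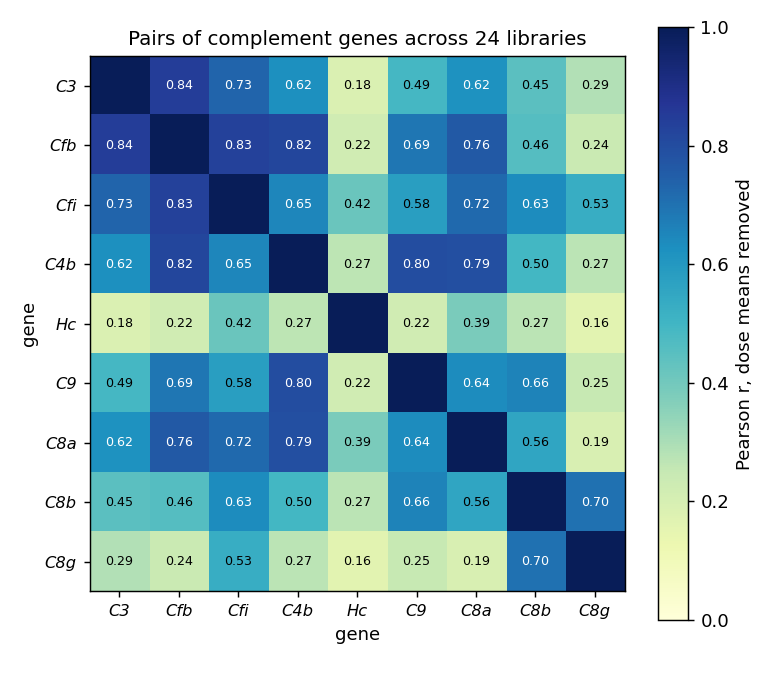
Pearson r of log2(RPKM + 1) between each pair of the 9 complement genes over 24 libraries after the mean of each dose was removed (colour scale 0 to 1). The block of C3, Cfb, Cfi, C4b and C8a is darkest and the row of Hc palest.

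Other genes of the pathway came from a list of 46, of which 41 were in the table and 30 were tested. Of these, 5 fell and 0 rose at 1 g/L, 10 fell and 3 rose at 2 g/L, and 21 fell and 1 rose at 3.5 g/L by limma, with a median log2 fold of −0.10, −0.10 and −0.46. At 1 g/L 1 of them was higher at an unadjusted p under 0.05. The 5 calls at 1 g/L (C1ra, C1s1, C1s2, C2 and Masp2) were lost with the title tag as a term and within tag L1, where their log2 folds were −0.28, −0.27, −0.42, −0.31 and −0.23 in that order, against −0.29, −0.27, −0.45, −0.34 and −0.24 as first fitted. Without control replicate 8 the fold of C1s2 was −0.28 and still called. The rises of Cpn1, Cr1l and Cd93 were lost under median-ratio and quantile scaling, which left 24 falls at 3.5 g/L.

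C6, the remaining terminal component in the table with enough reads, fell to 16.6 ± 7.7 RPKM at 3.5 g/L, against 42.2 ± 6.2 RPKM in control livers (SD, n = 6 each), a log2 fold of −1.38 (SE 0.22, limma adjusted p = 1.18e-05). At 2 g/L its fold was −0.45 (limma adjusted p = 0.0881). C7, another pore component, and Cfd, the protease that activates factor B, stayed below the filter and were not tested.

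In the classical and lectin routes 5, 7 and 14 of 17 tested genes fell at the 3 rising doses. C2, which lies 85 bases from Cfb and codes for its counterpart in the classical convertase, fell to 13.7 ± 1.6 RPKM at 3.5 g/L, against 34.9 ± 3.1 RPKM in control livers, a log2 fold of −1.29 (SE 0.09, limma adjusted p = 1.48e-10). The proteases of the C1 complex fell likewise: C1ra had a log2 fold of −1.03 (SE 0.07) and C1s1 of −0.95 (SE 0.07) at 3.5 g/L. Their near-identical copies C1rb (−0.58) and C1s2 (−0.93) had at most 2.52 and 8.02 RPKM, and their reads may be shared. At such low levels the 1 RPKM added before the log shrinks a fold. By means at 3.5 g/L, C1rb and C1s2 were at 43.7% and 39.6% of control, beside 48.4% for C1ra and 51.4% for C1s1. Masp1 and Masp2, proteases of the lectin route, had folds of −0.59 and −0.57. C4a, also at a low level, had a fold of −0.79 with its mean at 30.7% of control. C1qa and C1qb, recognition chains that macrophages make, fell at 3.5 g/L (−0.54 and −0.57, SE 0.14 and 0.13, limma adjusted p = 0.00186 and 0.00107) and did not pass the test at 1 or 2 g/L. The list of Kupffer cell markers, liver macrophages, holds 3 C1q chains, and 10 of its 11 tested genes fell at 3.5 g/L. Its sum was 62.8 to 87.0 RPKM at 3.5 g/L and 97.5 to 141 RPKM in control livers, and its part in the C1q values was not tested. Mbl1, a mannose-binding lectin of the liver, had 91.4 ± 4.5 RPKM at 3.5 g/L and 112 ± 11 RPKM in control livers.

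**Figure D5:**
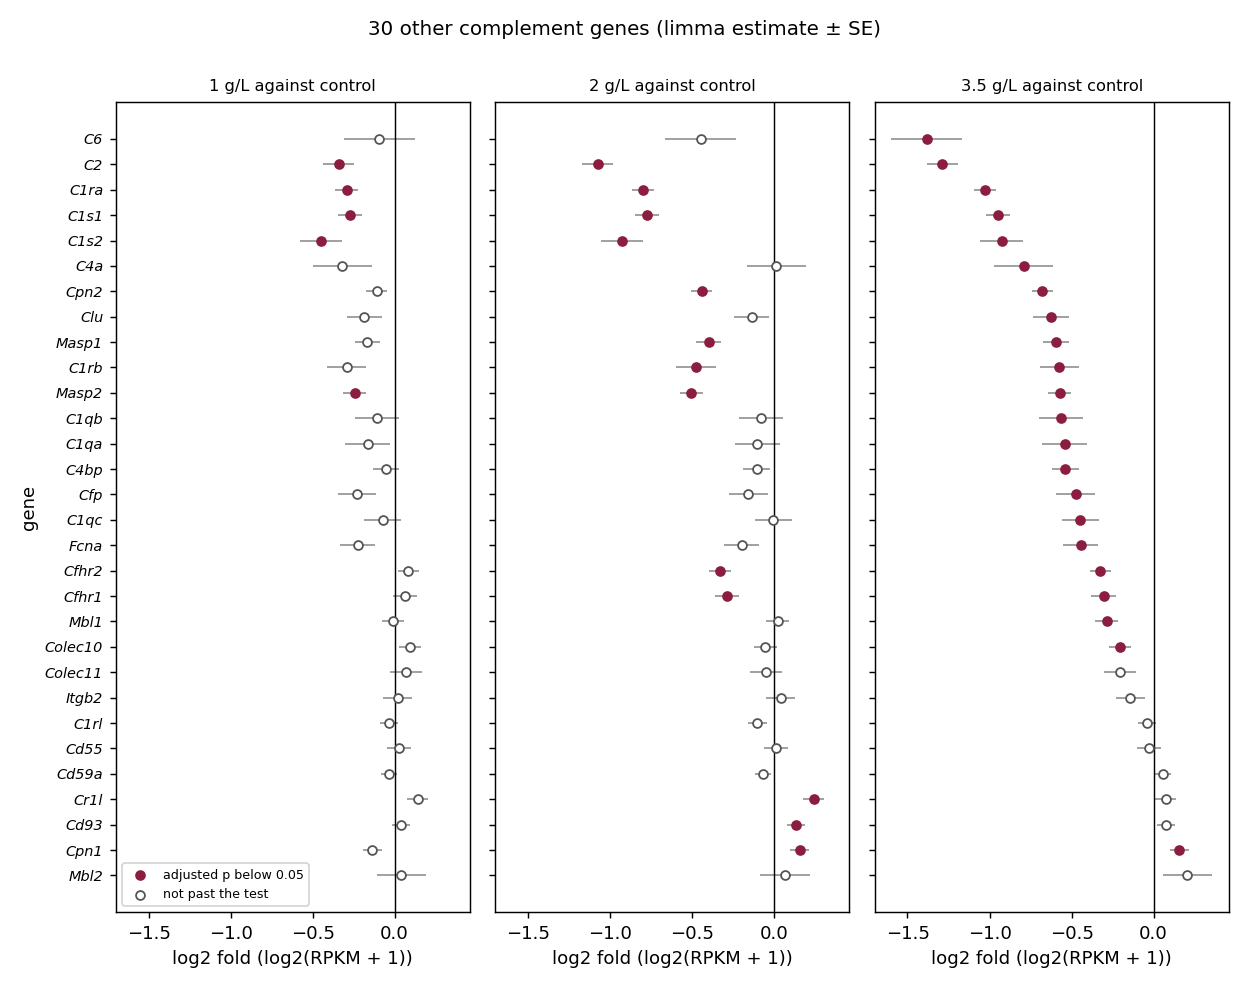
Log2 fold over control on the log2(RPKM + 1) scale of 30 other complement genes at 1, 2 and 3.5 g/L DCA; points are limma estimates, bars their SE, and filled points have an adjusted p below 0.05. Filled points are 5, 13 and 22 at the 3 doses, and C6 and C2 have the lowest folds at 3.5 g/L.

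Among regulators 5 of 9 tested genes fell and 1 rose at 3.5 g/L. C4bp, the C4b-binding protein that acts as a cofactor of factor I on C4b, fell to 114 ± 10.0 RPKM at 3.5 g/L, against 166 ± 22 RPKM in control livers (SD, n = 6 each), a log2 fold of −0.54 (SE 0.08, limma adjusted p = 7.54e-06). At 2 g/L its fold was −0.11 (SE 0.08, limma adjusted p = 0.287). Clu, clusterin, which blocks pore assembly, had a fold of −0.63 (SE 0.11) at 3.5 g/L and −0.14 (SE 0.11, limma adjusted p = 0.299) at 2 g/L. The 2 subunits of carboxypeptidase N, which inactivates the small peptides cut from C3 and C5, parted: Cpn2 fell at 3.5 g/L (−0.68, SE 0.06), and Cpn1 had a fold of 0.16 (SE 0.06) as deposited and 0.00 under median-ratio scaling. Of the receptors only Itgb2 and Cd93 were tested, and neither passed the test at 1 or 3.5 g/L.

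The genes most like the members' mean profile over 24 libraries were C1ra (r = 0.97), Cpn2 (0.97), C2 (0.97), C1s1 (0.96) and 1300017J02Rik (0.95), which follow dose. After dose means were removed they were Cpn2 (0.79), Itih4 (0.78), Fga (0.76), Fgg (0.76) and 6330416G13Rik (0.73), where Fga and Fgg code for fibrinogen chains. 6330416G13Rik had only 0.66 to 1.51 RPKM over all libraries, near the filter of 0.5 RPKM.

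Several other lists moved in the same libraries, and their part in the complement values was not tested. Of 18 tested coagulation and plasma protein genes 7, 17 and 18 fell at the 3 rising doses (12 at 1 g/L with median-ratio factors, 4 within tag L1), with a median log2 fold of −0.65 at 3.5 g/L, among them F5 (log2 fold −1.27, SE 0.07, at 3.5 g/L) and F11 (−1.51, SE 0.11). The acute-phase list held 28 genes, of which Saa1 to Saa4, Orm1 to Orm3, Serpina3n and Serpina1a, several of them strongly induced in acute-phase responses of the mouse, were not analysed here. Of the 18 tested, 14 fell at 3.5 g/L (median log2 fold −0.74) and 7 at 2 g/L, with 0 rises by limma, also at an unadjusted p under 0.05. With the title tag as a term, 1 of the 7 falls at 2 g/L, Il6ra, was left. Without control replicate 8, 6 fell and 2 rose at 2 g/L, Lcn2 (log2 fold 2.35, limma adjusted p = 0.00257) and the receptor chain gene Il6st (0.18, limma adjusted p = 0.0238). Il6ra, the receptor for the cytokine that induces hepatic acute-phase genes, fell to 3.07 ± 0.48 RPKM at 3.5 g/L, against 10.1 ± 3.0 RPKM in control livers (log2 fold −1.40, SE 0.16, limma adjusted p = 1.14e-07). Of 18 liver transcription factors 6 rose and 2 fell at 3.5 g/L (5 and 3 with median-ratio factors), and Nr1h4, the bile acid receptor FXR, rose to 32.7 ± 2.6 RPKM, against 16.5 ± 3.1 RPKM in control livers (log2 fold 0.96, SE 0.09, limma adjusted p = 1.02e-08). Its fold stayed called under median-ratio (0.81) and quantile scaling (0.78). Hepatocyte markers fell in 4 of 8 cases at 3.5 g/L (Alb, Apoa1, Apob and Cps1) and rose in 1 (Hnf4a, log2 fold 0.44). Ass1, Fah and Asgr1 were not called (−0.04, −0.09 and 0.003), while median-ratio factors left Fah and Asgr1 called lower (−0.25 and −0.15). The sum of the hepatocyte markers was 17360 to 22780 RPKM at 3.5 g/L and 22770 to 29350 RPKM in control livers. Alb alone had 13590 to 18900 RPKM at 3.5 g/L. Sinusoidal endothelial markers summed to 54.7 to 63.7 RPKM at 3.5 g/L and 56.5 to 68.2 RPKM in control livers. Of these 8 tested markers 3 fell and 0 rose at 3.5 g/L, with a median log2 fold of −0.12. Stellate cell markers summed to 57.7 to 65.1 RPKM (median 62.1) at 3.5 g/L and 62.2 to 81.6 RPKM (median 66.2) in control livers. Among them Des alone ran from 0.433 to 14.3 RPKM in control livers. Of 7 tested stellate markers 0 fell and 1 rose at 3.5 g/L. Erythroid markers fell in 4 of 5 cases at 3.5 g/L (2 without control replicate 8), with sums of 185 to 386 RPKM at 3.5 g/L and 198 to 649 RPKM in control livers.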

How the data were processed

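Liver RNA was sequenced in 24 libraries from male B6C3F1 mice after 6 days of DCA in drinking water, 6 per dose. The RPKM values were used as the authors deposited them, with a column per library and zeros written as 1e-04. Per the submitters' processing notes, mm10, STAR 2.4, CASAVA and Partek were used, with no role named, and the counting and annotation are not given in the sources used here. Per the labels' protocols a stranded total RNA kit with removal of ribosomal RNA was used. The table as held is in symbol order and ends at Olfr270, so later genes, such as Serping1, Vtn and Vsig4, were not analysed here. Of 15596 lines, 1 incomplete line and 13 with date-like symbols were dropped, and 0 columns were left unused.

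Log2(RPKM + 1) of 6540 genes with at least 0.5 RPKM in 6 or more libraries was fitted with limma 3.58.1 in R 4.3.3, with 1 mean per dose, a variance trend, 20 residual degrees of freedom and Benjamini-Hochberg adjustment of two-sided p over all genes tested. On simulated data, of 100 genes changed 2-fold, 98%, 98% and 99% were recovered for the 3 doses against control among 6540 genes. Of 100 changed 1.5-fold, 92%, 93% and 91% were recovered, with 6, 10 and 8 false calls among 6340 unchanged genes. The simulated noise was normal and independent between genes, without tag or shared scaling, so these rates need not hold for the real libraries. Depth was estimated from the steps of low RPKM values, of which 8699 of 9004 (96.6%) were whole reads within 0.02 times their number. The estimated total for the median library was 25600000 reads, with an interquartile range over genes of 18600000 to 28300000. Read counts could not be rebuilt for every gene, and a count test was therefore left out.

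The 9 genes and all gene lists were chosen with earlier results of these data known, so the 9 have counts, ranges, folds and SE but no p. The adjusted p printed for genes of the other lists are those of the test over all genes. Most of these genes were named for their calls and folds in the same contrasts, so their p are no independent evidence. Among erythroid markers Hbb-b1 and Hbb-b2 were left out after their values were seen, since the row of Hbb-b2 is identical to that of Hbb-bt and Hbb-b1 is an older symbol beside Hbb-bs. 1 gene of the pathway is not reported here and stands in no count of the other complement genes. Of these genes those named are the 14 called at 2 or 3.5 g/L with the largest fold at 3.5 g/L. The text also singles out Cpn1, Cr1l, Cd93, Mbl1, Mbl2, C7, Cfd and Itgb2, after their values were seen. Of the acute-phase, coagulation and transcription factor lists, the examples are among the 4 called genes with the largest fold at 2 g/L. Replicate numbers differ between doses and pair no samples. Alternatives were a pseudocount of 0.1, no filter on low values, median-ratio factors, quantile scaling, the title tag as a term, fits within 1 title tag and leaving out each library. Promoters are from RefSeq GRCm38.p6 and gene positions from GENCODE on GRCm38, searched and tabulated with Python 3.11.15.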

Additional observations from a re-analysis of the deposited data

Results flagged for a closer look

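Within each dose, 10 of 92 groups of 6 libraries had 1 library far from the other 5, where chance alone flags about 4.6. Among the 9 complement genes these were C4b in replicate 49 at 1 g/L (91.2 RPKM, the others 71.9 to 78.9), C8b in replicate 50 at 1 g/L (154 RPKM, the others 122 to 133), Cfi in replicate 78 at 2 g/L (109 RPKM, the others 82.7 to 92.4) and Cfb in control replicate 8 (400.4 RPKM, the others 256 to 307). Each of these 4 was the highest of its group.

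Control replicate 8 was also flagged in this way, as the highest control, for 5 other complement genes. It had 8.02 RPKM of C1s2 (the others 3.40 to 3.97), 395.6 RPKM of Clu (the others 319 to 346), 2.52 RPKM of C1rb (the others 0.983 to 1.44), 18.6 RPKM of C1qb (the others 11.9 to 13.7) and 24.4 RPKM of C1qa (the others 14.3 to 17.0). The same library held 153 RPKM of Lcn2. C6 in replicate 54 at 1 g/L was low, at 26.1 RPKM, with the others at 39.8 to 44.6 RPKM.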

How the results depend on the processing

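No paired analysis was possible because the doses share no replicate numbers. No fold of the 9 genes over control changed sign under any alternative run. Calls of the 9 at 1 g/L numbered 3 with the title tag as a term and 1 within tag L1, in place of 5. They numbered 4 with quantile scaling, 4 with no filter on low values and 4 to 6 when 1 library was left out. At 2 and 3.5 g/L they numbered 9 whichever library was left out. At 3.5 g/L no tag term could be fitted.

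Over all genes at 1 g/L, 546 were higher and 198 lower as deposited. The counts were 236 and 355 with median-ratio factors, 344 and 312 with quantile scaling, 80 and 92 with the tag term and 12 and 38 within tag L1. Leaving out 1 library gave 305 (without control replicate 3) to 777 (without replicate 49 at 1 g/L) higher and 151 to 215 lower. At 2 g/L 2738 higher and 657 lower became 1363 and 1407 with median-ratio factors, 1363 and 1311 with quantile scaling, and 691 and 282 with the tag term, and 2435 to 2759 and 554 to 691 with 1 library left out. At 3.5 g/L 2525 higher and 843 lower became 1503 and 1569 with median-ratio factors and 1429 and 1445 with quantile scaling, and 2339 to 2538 and 760 to 858 with 1 library left out.

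Of the other complement genes, the 5 falls at 1 g/L became 0 with the tag term and 0 within tag L1, with folds of −0.23 to −0.42 in place of −0.24 to −0.45 (C1ra, C1s1, C1s2, C2 and Masp2), and 3 (without replicate 54 at 1 g/L) to 5 with 1 library left out, with 0 to 1 rises. At 2 g/L the 3 rises became 0 with median-ratio factors, quantile scaling and the tag term, and 1 to 3 with 1 library left out. The 10 falls there became 18, 16 and 7 under those settings, and 10 to 11 with 1 library left out. At 3.5 g/L the 1 rise became 0 with median-ratio factors and with quantile scaling, and 0 to 1 with 1 library left out, beside 21 to 22 falls. The causes of these differences were not tested. A pseudocount of 0.1 and no filter kept these counts within 1.5 times their values.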
